A study of Mus musculus with 7 samples.

Results

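Inhibitory immune receptors are surface proteins that restrain myeloid cells. Most of them carry tyrosine motifs in the cytoplasmic tail, known as ITIMs, which recruit phosphatases such as SHP-1 (gene Ptpn6) when the receptor binds its ligand. The phosphatases then dampen signals from activating receptors, many of which share a ligand or a gene family with an inhibitory partner. Mature neutrophils, monocytes and macrophages are known for carrying many such receptors. The genes described here were chosen by symbol, with earlier results of these data known, and number 9 of the 34305 rows in the deposited count table. They are Sirpa, Pirb, Vsir, Ceacam1, Cd300lf, Cd300a, Cd33, Siglece and Lair1. Their tail motifs were not examined here, and whether each mouse protein is inhibitory was not tested.

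The data are 7 messenger RNA libraries made from mouse HSPCs, the haematopoietic stem and progenitor cells from which blood forms. The protocol given for all samples was transduction, a sort and culture. Of the libraries, 3 overexpressed MN1pQdel, the MN1 protein without its polyglutamine stretch, and 3 overexpressed MN1, a transcriptional co-regulator and an oncogene of acute myeloid leukaemia. The last library, noTD, has a title that marks it as untransduced and an overexpression label of none, although its source label reads like those of the transduced samples. Every group grew in the cytokines SCF, IL-3 and IL-6, and RNA was purified after 7 to 9 days. The labels do not give the mouse strain or age, the sort gate, the species or promoter of the constructs, or the day of each library. No label ties the replicates to different animals or cultures, and the p-values speak only for the spread among these libraries, which may be technical.

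Library totals ran from 38210660 to 67728658 counts. Mn1 stood at 691, 404 and 728 CPM, the count scaled to a library of fixed size, in the MN1pQdel libraries, at 314, 287 and 288 CPM in the MN1 libraries and at 33.6 CPM in noTD, which was below every transduced library. Reads from the construct and from the cell's own gene are not separated. Mn1 itself was higher in MN1pQdel (log2 fold change 1.05, SE 0.23, edgeR adjusted p = 0.0282), a call kept in 1 of 6 fits that leave out 1 library. The amount of Mn1 RNA and the missing stretch cannot be told apart as properties of the MN1pQdel group. The 14 progenitor markers summed to between 917 and 1380 CPM in MN1pQdel, 1840 and 2345 CPM in MN1 and 1336 CPM in noTD. Markers of mature cells were also abundant, with 21 neutrophil markers summing to between 34660 and 47909 CPM in MN1pQdel, 6318 to 10461 CPM in MN1 and 50959 CPM in noTD. All CPM values were scaled by the trimmed mean of M-values (TMM).

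All 9 receptor genes were higher in MN1pQdel than in MN1, by 1.74-fold for Cd300a up to 5.99-fold for Cd300lf. The test was edgeR's quasi-likelihood test of 3 against 3 libraries, with Benjamini-Hochberg adjustment over 14808 genes and a threshold of 0.05. Of all genes tested, 11.1% were called higher in MN1pQdel and 6.08% lower. The 9 were chosen with earlier results known, so their count beside this share is a description and no test of the set. The median log2 fold change, MN1pQdel over MN1, was 1.84 over the 9 genes and 0.01 over all tested genes. The groups did not overlap for any of the 9, against 21.7% of tested genes with every MN1pQdel library above every MN1 library. In noTD, all 9 genes were above every MN1 library. The share of all tested genes with that order was not counted, so this count of the 9 cannot be set against it. In bulk RNA, fewer cells of a type and less RNA per cell cannot be told apart.

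The upstream sequences of 4 of the genes are shown, those of the 3 with the largest fold changes and the 1 with the smallest. Each stretch is the 250 bases before the transcription start in RefSeq, build GRCm38.p6, written 5′ to 3′ on the gene's strand. Capitals mark GAGGAA, the core of the site read by the myeloid factor PU.1, or its reverse complement TTCCTC. Cd300lf lies at chr11:115133993-115134242 (minus strand), Ceacam1 at chr7:25477626-25477875 (minus strand), Pirb at chr7:3720383-3720632 (minus strand) and Cd300a at chr11:114889791-114890040 (plus strand).
Cd300lf: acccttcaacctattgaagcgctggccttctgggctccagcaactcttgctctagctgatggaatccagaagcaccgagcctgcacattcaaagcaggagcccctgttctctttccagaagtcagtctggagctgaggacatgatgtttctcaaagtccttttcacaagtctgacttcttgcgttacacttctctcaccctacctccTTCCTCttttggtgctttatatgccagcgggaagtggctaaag
Ceacam1: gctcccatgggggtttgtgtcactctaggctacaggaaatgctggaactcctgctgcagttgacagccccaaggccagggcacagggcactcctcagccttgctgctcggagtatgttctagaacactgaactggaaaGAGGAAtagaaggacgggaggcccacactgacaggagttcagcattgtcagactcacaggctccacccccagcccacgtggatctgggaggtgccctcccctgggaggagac
Pirb: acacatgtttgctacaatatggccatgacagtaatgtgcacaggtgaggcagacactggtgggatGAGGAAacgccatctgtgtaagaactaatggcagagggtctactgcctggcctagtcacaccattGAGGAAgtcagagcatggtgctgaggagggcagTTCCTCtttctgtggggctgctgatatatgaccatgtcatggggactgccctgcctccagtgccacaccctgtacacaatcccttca
Cd300a: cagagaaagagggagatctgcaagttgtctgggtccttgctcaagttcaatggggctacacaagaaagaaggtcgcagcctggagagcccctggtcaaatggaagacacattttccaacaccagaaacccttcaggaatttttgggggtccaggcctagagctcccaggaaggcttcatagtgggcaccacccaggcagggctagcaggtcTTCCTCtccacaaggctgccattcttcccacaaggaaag

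Of the 9 genes, 8 had an entry among the RefSeq promoters, all but Sirpa. RefSeq starts can differ from the GENCODE gene coordinates given for each gene. By the latter, the Cd33 window (chr7:43533172-43533421) lies inside the gene, and the Pirb window overlaps the gene's 5′ end. GAGGAA on either strand was found in 7 of these 8 windows, all but that of Vsir, and in 23.3% of 32851 promoter windows of the same length. TTGCNNAA (reverse complement TTNNGCAA), a form of the site read by C/EBP factors, was found in 2 of the 8, Lair1 and Cd300a, and in 9.56% of all windows. TGTGGT (reverse complement ACCACA), the core of the site read by RUNX factors, was found in Cd33 and in 14.0% of all windows. All were searched on both strands, and none of the motifs overlapped another in these windows. Siglece and Pirb each held 3 copies of GAGGAA, and the copy nearest to a start was in Siglece, with its last base 6 bases before the start. A match describes letters and does not show that a factor binds. The genes were chosen with earlier results known, so these counts are a description and no test of the set.

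Sirpa and Pirb encode receptors for markers of self. Sirpa (chromosome 2, 129592835 to 129632228, plus strand) encodes SIRPα, which binds CD47 on other cells and restrains phagocytosis. Sirpa was counted at 365, 296 and 370 CPM in the MN1pQdel libraries, 145, 137 and 174 CPM in the MN1 libraries and 407 CPM in noTD. The lowest MN1pQdel library thus lay well above the highest MN1 library. The means were 344 ± 41.2 CPM in MN1pQdel and 152 ± 19.6 CPM in MN1 (SD, n = 3 each). The log2 fold change was 1.19 (SE 0.14, edgeR adjusted p = 0.00594).

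Pirb (chromosome 7, 3711409 to 3720391, minus strand) encodes paired immunoglobulin-like receptor B, which binds MHC class I and is the mouse relative of the human LILRB receptors. It stood at 285, 132 and 273 CPM in MN1pQdel, at 58.9, 42.5 and 57.7 CPM in MN1 and at 382 CPM in noTD. Replicate 2 was the lowest library of both transduced groups. The log2 fold change was 2.13 (SE 0.31, edgeR adjusted p = 0.00985). Close relatives of Pirb, the Pira genes, can share reads with it, as the Sirpb1 genes can with Sirpa, so the separate level of each is uncertain.

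Vsir (chromosome 10, 60346851 to 60372684, plus strand) encodes VISTA, an inhibitory protein of the B7 family that is abundant on myeloid cells. Vsir was counted at 443, 365 and 397 CPM in MN1pQdel, at 121, 114 and 104 CPM in MN1 and at 503 CPM in noTD. The means were 402 ± 39.2 CPM in MN1pQdel and 113 ± 8.77 CPM in MN1 (SD, n = 3 each), and the untransduced library lay above both groups. On the log2 scale Vsir differed by 1.84 (SE 0.13, edgeR adjusted p = 0.00385).

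Ceacam1 (chromosome 7, 25461707 to 25477603, minus strand) encodes an adhesion receptor that binds itself on neighbouring cells. It had the smallest p-value of the 9. Its levels were 216, 209 and 209 CPM in MN1pQdel, 43.8, 48.8 and 36.2 CPM in MN1 and 209 CPM in noTD. The MN1pQdel libraries spread over only 3.80 CPM (SD, n = 3) around a mean of 212 CPM, and the untransduced library lay inside their range. The difference was 2.31 on the log2 scale (SE 0.14, edgeR adjusted p = 0.00357). Long and short tail isoforms of Ceacam1, of which only the long form carries ITIMs, are not separated in a table per gene, and its close relative Ceacam2 can share reads with it.

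The CD300 pair, whose products bind lipids exposed on dying or stressed cells, held the largest and the smallest change. Cd300lf (chromosome 11, 115116214 to 115133992, minus strand) was counted at 342, 119 and 271 CPM in MN1pQdel, at 43.8, 32.2 and 47.5 CPM in MN1 and at 344 CPM in noTD. The MN1pQdel libraries were spread widely, with replicate 2 far below the others yet above every MN1 library. The log2 fold change was 2.58 (SE 0.39, edgeR adjusted p = 0.0106). The call was narrowly lost without MN1 replicate 2 (edgeR adjusted p = 0.0511) and without MN1 replicate 3, where p was just over the threshold. The log2 fold change ran from 2.24 to 2.89 over the 6 fits that leave out 1 library.

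Cd300a (chromosome 11, 114890041 to 114904654, plus strand) stood at 96.0, 66.2 and 71.4 CPM in MN1pQdel, at 51.1, 42.5 and 41.4 CPM in MN1 and at 95.3 CPM in noTD. The groups did not overlap, and MN1pQdel replicate 1 stood apart as the highest library, next to noTD. On the log2 scale Cd300a differed by 0.80 (SE 0.17, edgeR adjusted p = 0.0281). The call held in 1 of the 6 fits that leave out 1 library, the one without MN1pQdel replicate 2. In the other fits the edgeR adjusted p was 0.0838 and 0.0604 without MN1pQdel replicates 1 and 3, and 0.0662, 0.105 and 0.106 without MN1 replicates 1, 2 and 3. Over all 6 fits the log2 fold change ran from 0.61 to 0.90.

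Siglece and Cd33 encode Siglecs, which bind sialic acids on the cell's own or neighbouring surfaces. Siglece (chromosome 7, 43651070 to 43660161, minus strand) was counted at 24.1, 32.3 and 31.3 CPM in MN1pQdel, at 8.56, 7.66 and 7.45 CPM in MN1 and at 33.1 CPM in noTD. It was the only gene of the 9 for which replicate 2 was not the lowest MN1pQdel library. Siglece differed by 1.90 on the log2 scale (SE 0.17, edgeR adjusted p = 0.00497). Cd33 (chromosome 7, 43524216 to 43544428, minus strand) stood at 347, 231 and 333 CPM in MN1pQdel, at 102, 90.4 and 102 CPM in MN1 and at 311 CPM in noTD. Its log2 fold change was 1.64 (SE 0.18, edgeR adjusted p = 0.00526), and noTD lay inside the MN1pQdel range.

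Lair1 (chromosome 7, 4003402 to 4063204, minus strand) encodes an inhibitory receptor for collagens. It was counted at 54.7, 42.2 and 53.8 CPM in MN1pQdel, at 23.0, 16.7 and 15.9 CPM in MN1 and at 52.3 CPM in noTD. The lowest MN1pQdel library was clear of the highest MN1 library. The log2 fold change was 1.45 (SE 0.20, edgeR adjusted p = 0.00854).

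**Figure D1:**
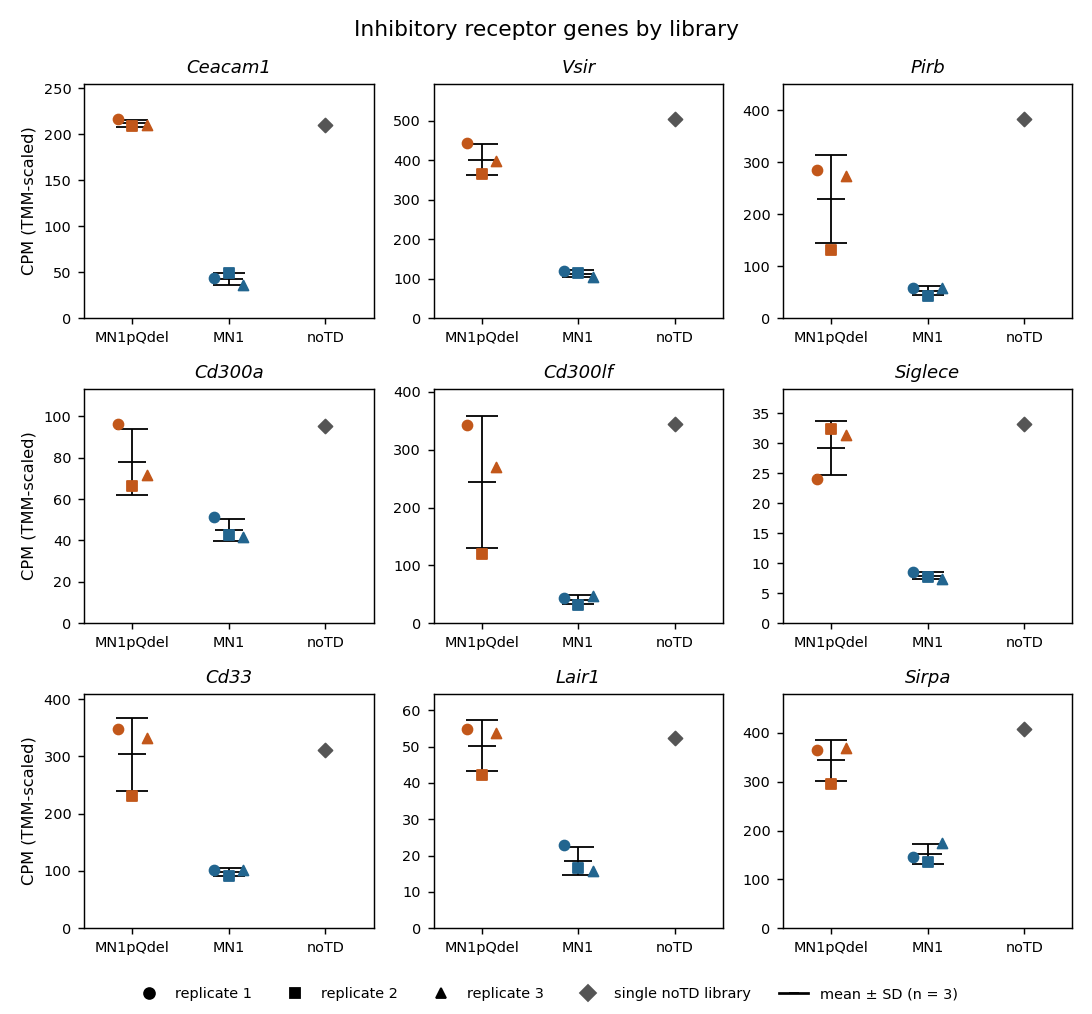
TMM-scaled CPM of the 9 receptor genes (vertical axes, each from 0) in the 3 MN1pQdel, 3 MN1 and 1 noTD libraries, with points for libraries and bars for mean ± SD of 3. Every MN1pQdel point lies above every MN1 point in all 9 panels, and the replicate 2 squares of Pirb (132 CPM) and Cd300lf (119 CPM) stand below the other MN1pQdel points.

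**Figure D2:**
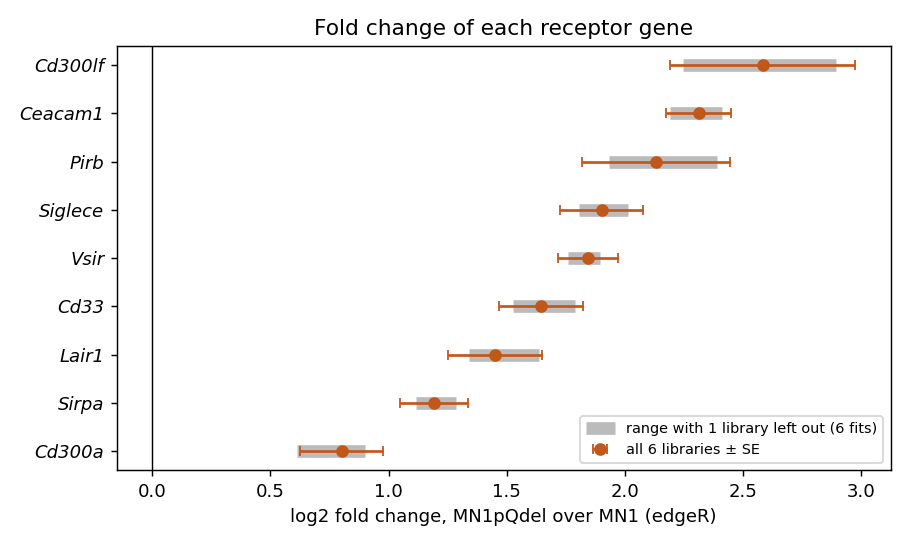
Log2 fold change of MN1pQdel over MN1 for each receptor gene (horizontal axis), with points and bars for the estimate ± SE from all 6 libraries and grey bands for the range of the 6 fits that leave out 1 library. Estimates run from 0.80 for Cd300a to 2.58 for Cd300lf, and no band reaches 0.

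The order of levels was compared per kilobase of merged exons, since longer transcripts collect more reads. Merged exons join every annotated exon of a gene and can exceed the transcript present, so the order depends on the annotation. Lair1 was divided by 7.475 kb and Siglece by 1.849 kb. Before that division Lair1 was above Siglece, with means of 50.2 and 29.2 CPM in MN1pQdel and 18.5 and 7.89 CPM in MN1. In MN1pQdel, Vsir was the highest at 80.2 ± 7.81 CPM per kb, then Sirpa at 70.01 ± 8.39, Pirb at 51.4 ± 19.0 and Cd300lf at 47.4 ± 22.1 CPM per kb (SD, n = 3). Cd33 at 39.1 and Ceacam1 at 36.4 CPM per kb followed, and neighbours among these 6 genes overlapped in range. Ceacam1 did not overlap Cd300a, the next gene. Cd300a (16.4) and Siglece (15.8 CPM per kb) overlapped each other, and Lair1 was lowest, without overlap, at 6.72 CPM per kb. In MN1, Sirpa was first at 31.0 ± 4.00 CPM per kb and Vsir second at 22.5 ± 1.75 CPM per kb (SD, n = 3), without overlap. Cd33 (12.6), Pirb (11.9), Cd300a (9.50), Cd300lf (7.996) and Ceacam1 (7.39 CPM per kb) followed without overlapping Vsir, and neighbours among these 5 genes overlapped. Siglece (4.27) and Lair1 (2.48 CPM per kb) were again at the bottom, without overlap with each other or with Ceacam1. By their means, Cd300lf and Ceacam1 thus stood above Cd300a in MN1pQdel and below it in MN1. In noTD, levels ran from 7.00 CPM per kb for Lair1 to 100.4 CPM per kb for Vsir.

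Ratios within a library compare how far relatives moved. Cd300lf over Cd300a, per kb, was 3.28, 1.65 and 3.49 in MN1pQdel, 0.788, 0.697 and 1.06 in MN1 and 3.32 in noTD. The transduced groups did not overlap in this ratio, which differed by 1.68 on the log2 scale. An exact 2-sided permutation test gave p = 0.1, the smallest that 3 against 3 libraries allow, and an adjusted p of 0.24 over the 6 pairs, which does not set this pair apart. Of 6 pairs of relatives compared, the other 5 overlapped between the groups (exact permutation p from 0.2 to 0.5, adjusted p over the 6 pairs from 0.24 to 0.5). These were Pirb over Lair1, Siglece over Cd33, Pirb over Pira2, Cd300lf over Cd300lb and Sirpa over Sirpb1b.

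Against the untransduced library, all 9 genes were low in MN1, while in MN1pQdel their median log2 difference was -0.25. With 1 untransduced library there is no test, and the differences of both groups share that library. The log2 difference of MN1 from noTD (prior count of 2) was lowest for Cd300lf at -3.08 and Pirb at -2.86. Ceacam1 followed at -2.30, Vsir at -2.16, Siglece at -2.07 and Cd33 at -1.67. Lair1 stood at -1.52, Sirpa at -1.43 and Cd300a at -1.09. All 9 were thus past 2-fold lower, against 14.9% of tested genes. The median of the 9 was -2.07, beside 0.05 over all tested genes.

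In MN1pQdel the same difference from noTD ran from -0.81 for Pirb and -0.63 for Cd300lf to 0.01 for Ceacam1, with a median of -0.25 beside 0.04 over all tested genes. None of the 9 was past 2-fold in either direction, where 3.08% of tested genes were lower and 1.56% higher. Most tested genes were thus within 2-fold as well. The untransduced library lay inside the MN1pQdel range for Ceacam1, Cd300a, Cd33 and Lair1, and above it for the other 5. How often all tested genes fall in these places was not counted. Without MN1pQdel replicate 1, Pirb passed 2-fold lower, as the only one of the 9.

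**Figure D3:**
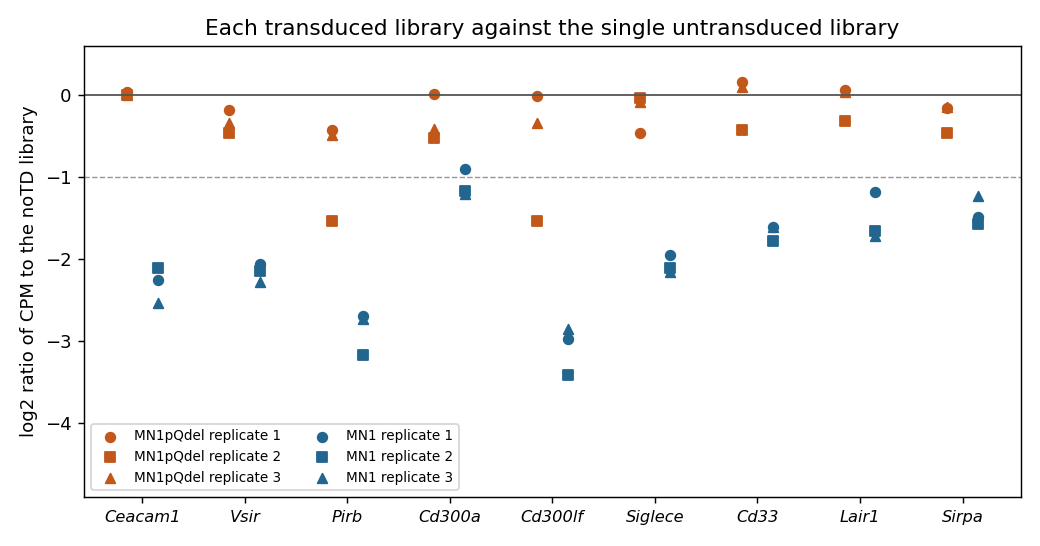
Log2 ratio of CPM in each transduced library to the single noTD library (vertical axis) for the 9 receptor genes, with the solid line at no difference and the dashed line at 2-fold lower. MN1pQdel points lie above the dashed line except replicate 2 for Pirb and Cd300lf, and MN1 points lie lower for every gene.

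MN1pQdel replicate 2 was the lowest of its group for 8 of the 9 genes, for Ceacam1 by less than 1 CPM. In that library the 10 eosinophil markers summed to 251 CPM, against 3424 and 3667 CPM in MN1pQdel replicates 1 and 3. Its 14 mast cell markers summed to 3619 CPM, against 17068 and 21330 CPM, and its 10 basophil markers to 1831 CPM, against 5985 and 6487 CPM. Its neutrophil markers, at 40767 CPM, lay between those of the other MN1pQdel libraries, and its monocyte and macrophage markers, at 1559 CPM, were the highest of them. The mast cell and basophil lists share some genes. Mn1 was also lowest of the group in this library, at 404 CPM against 691 and 728 CPM in MN1pQdel replicates 1 and 3. The part of this library's makeup or of its Mn1 level in the receptor levels was not tested. Without the replicate 2 pair all 9 genes were still called higher in MN1pQdel, beside 17.4% of tested genes in that fit.

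Marker lists of several cell types moved together with the receptors. All 21 tested neutrophil markers were higher in MN1pQdel, with a median log2 fold change of 2.67. Monocyte and macrophage markers were higher in 7 and lower in 1 of 22, and summed to between 1169 and 1559 CPM in MN1pQdel, 801 and 978 CPM in MN1 and 1821 CPM in noTD. Eosinophil markers were higher in 8 of 10, summing to between 251 and 3667 CPM in MN1pQdel, 20.3 and 32.8 CPM in MN1 and 3825 CPM in noTD. Mast cell markers were higher in 6 of 14 and summed to between 3619 and 21330 CPM in MN1pQdel, 1946 and 4588 CPM in MN1 and 17754 CPM in noTD. Basophil markers were higher in 5 of 10 and summed to between 1831 and 6487 CPM in MN1pQdel, 712 and 1736 CPM in MN1 and 5959 CPM in noTD. Progenitor markers went the other way, lower in 7 of 14, with sums of 917 to 1380 CPM in MN1pQdel, 1840 to 2345 CPM in MN1 and 1336 CPM in noTD. Erythroid and megakaryocyte markers were higher in 1 of 14, with sums of 399 to 1166 CPM in MN1pQdel, 255 to 753 CPM in MN1 and 947 CPM in noTD. Dendritic cell markers were lower in 1 of 9 tested, and Cd209a was at 0 counts throughout. Over all 12 listed, tested or not, they summed to 62.3 to 86.7 CPM in MN1pQdel, 185 to 225 CPM in MN1 and 135 CPM in noTD. Their sum was thus lower in every MN1pQdel library than in every MN1 library, opposite to the receptors. Lymphoid markers were lower in 1 of 6 tested. Over all 16 listed, tested or not, they summed to 16.9 to 36.1 CPM in MN1pQdel, 32.4 to 44.0 CPM in MN1 and 18.6 CPM in noTD. With the replicate block, 11 mast cell, 9 basophil and 5 erythroid and megakaryocyte markers were higher, and 1 dendritic cell marker was higher and 2 lower. The part of cell composition in the receptor differences was not tested.

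Other inhibitory receptors were called in both directions, with a median log2 fold change (MN1pQdel over MN1) of 1.04. Of 22 tested, 6 were higher and 2 lower in MN1pQdel, and 11 and 3 with the replicate number as a block, where 17.0% of tested genes were higher and 13.7% lower. The higher genes were Clec4a2, Cd200r1, Cd22, Pilra, Fcgr2b and Siglec5, the table's symbol for Siglecf. Clec4a2 and Pilra kept the call in all 6 fits with 1 library left out, Siglec5 in 2, and Cd200r1, Cd22 and Fcgr2b in 1. Clec4a2, an inhibitory C-type lectin gene, stood at 57.0 ± 8.13 CPM in MN1pQdel and 7.63 ± 1.48 CPM in MN1 (SD, n = 3 each). Its log2 fold change was 2.91 (SE 0.20, edgeR adjusted p = 0.00385). Cd200r1, which restrains myeloid cells through CD200, differed by 2.22 on the log2 scale (SE 0.47, edgeR adjusted p = 0.0260). Cd22 was higher at a very low level, with 0.593 to 1.04 CPM in MN1pQdel and 0.208 to 0.276 CPM in MN1. The lower genes were Cd72, at 3.07 ± 0.511 CPM in MN1pQdel and 8.27 ± 1.06 CPM in MN1 (SD, n = 3 each), and Pdcd1. Cd72 kept the call in 3 of 6 fits with 1 library left out and Pdcd1 in 5. Pdcd1, the PD-1 gene, had 3 counts summed over the MN1pQdel libraries and 242 summed over the MN1 libraries. Relative to TMM-scaled library sizes that is 0.0108 of the MN1 level, between 0.00221 and 0.0320 by an exact 95% interval that covers counting error only. With 1 library left out, the number of other inhibitory receptors called higher was 10 without MN1pQdel replicate 2, 3 without MN1 replicate 1 and 2 in each of the other 4 fits.

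Activating counterparts of these receptors were higher in MN1pQdel in 11 of 17 tested genes and lower in none. The adaptors that carry their signals, Tyrobp (DAP12), Fcer1g and Hcst (DAP10), were all higher. Tyrobp stood at 514 ± 215 CPM in MN1pQdel and 96.8 ± 10.6 CPM in MN1 (SD, n = 3 each), and differed by 2.42 on the log2 scale (SE 0.34, edgeR adjusted p = 0.00916). Pira2, an activating relative of Pirb, differed by 2.86 (SE 0.61, edgeR adjusted p = 0.0272) on the log2 scale, and Cd300lb, an activating relative of Cd300lf, by 2.00 (SE 0.41, edgeR adjusted p = 0.0236). Sirpb1b, a relative of Sirpa, differed by 1.73 (SE 0.32, edgeR adjusted p = 0.0187). With 1 library left out, Pira2, Fcer1g and Hcst kept the call in 1 of 6 fits, Cd300lb and Sirpb1b in 2 and Tyrobp in 6. Cd300ld did not pass (log2 fold change -0.29, SE 0.37, edgeR adjusted p = 0.588). The count of activating counterparts called higher was 3, 11 and 5 without MN1pQdel replicates 1, 2 and 3, and 2, 2 and 4 without MN1 replicates 1, 2 and 3.

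Downstream of the receptors, 11 of 21 phosphatase, kinase and adaptor genes were higher in MN1pQdel and none lower. Ptpn6, the SHP-1 gene, stood at 404 ± 30.01 CPM in MN1pQdel and 208 ± 9.19 CPM in MN1 (SD, n = 3 each), and differed by 0.97 on the log2 scale (SE 0.11, edgeR adjusted p = 0.00526). Ptpn11, which encodes the related phosphatase SHP-2, did not pass (-0.20, SE 0.13, edgeR adjusted p = 0.296). Inpp5d, the SHIP-1 gene, did not pass (log2 fold change 0.80, SE 0.31, edgeR adjusted p = 0.110), but did with the replicate block (edgeR adjusted p = 0.0234). Fgr, a Src family kinase gene of myeloid cells, differed by 2.41 on the log2 scale (SE 0.22, edgeR adjusted p = 0.00497), and the inhibitory adaptor gene Dok3 by 1.79 (SE 0.24, edgeR adjusted p = 0.00854). Both kept the call in all 6 fits with 1 library left out. The list's count was 8, 16 and 8 without MN1pQdel replicates 1, 2 and 3, and 7, 8 and 6 without MN1 replicates 1, 2 and 3.

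Of 15 tested ligand genes that are not themselves among the 9, 5 were higher and 1 lower in MN1pQdel, and 7 and 3 under the replicate block. Cd47, whose product binds SIRPα, stood at 561 ± 57.0 CPM in MN1pQdel and 500 ± 17.5 CPM in MN1 (SD, n = 3 each) and did not pass (log2 fold change 0.18, SE 0.11, edgeR adjusted p = 0.293), and its sign turned, to -0.02, when libraries were scaled by their totals alone. B2m, the shared light chain of the MHC class I ligands of Pirb, did not pass either (-0.21, SE 0.16, edgeR adjusted p = 0.361). Among collagen genes, whose products bind LAIR1, Col1a1 was higher (2.43, SE 0.38, edgeR adjusted p = 0.0116) and Col4a1 lower (-4.85, SE 0.97, edgeR adjusted p = 0.0227) on the log2 scale. Col1a1 kept the call in 4 of 6 fits with 1 library left out and Col4a1 in 2. The count of ligand genes called higher ran from 0, without MN1pQdel replicate 1 or MN1 replicate 1, to 8, without MN1pQdel replicate 2. Of 13 genes that make or attach sialic acid, the ligand of Siglecs, only St3gal2 passed (1.88, SE 0.46, edgeR adjusted p = 0.0367), in 1 of 6 fits with 1 library left out, and 3 were higher and 1 lower with the block.

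**Figure D4:**
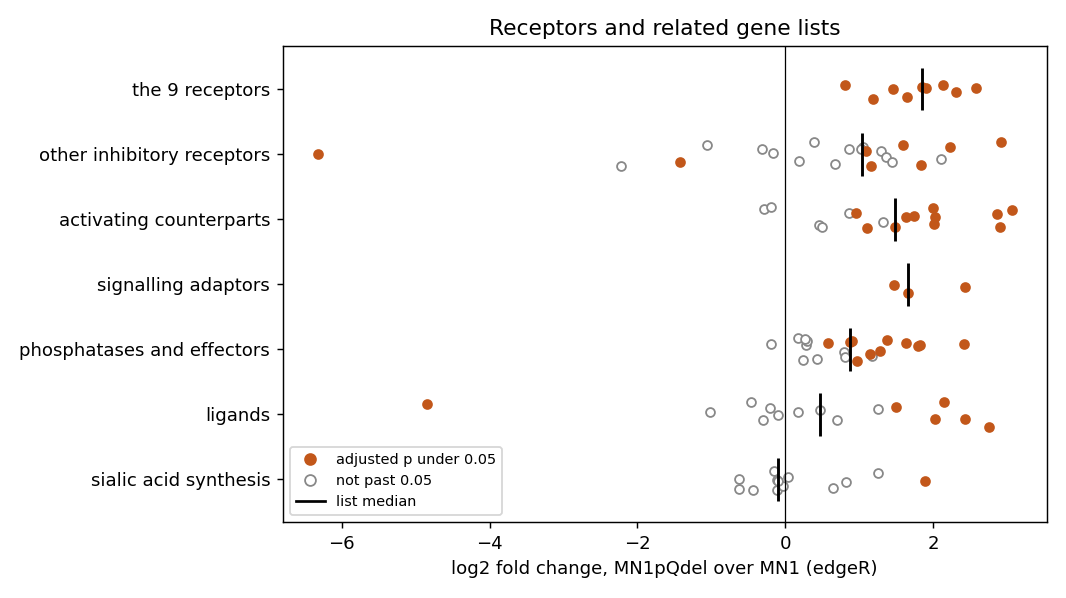
Log2 fold change of MN1pQdel over MN1 (horizontal axis) for each tested gene of the 9 receptors and 6 related lists, with filled points past an edgeR adjusted p of 0.05, open points not past it and black bars at list medians. The receptor median is 1.84, that of the other inhibitory receptors 1.04, that of the activating counterparts 1.48 and that of the sialic acid genes -0.10.

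The genes whose profile over the 7 libraries lay closest to each receptor were found by the root-mean-square difference of centred log2 CPM, among genes averaging 5 CPM or more. Vsir was closest to Ncf1, a subunit gene of the phagocyte NADPH oxidase (0.08). Pirb was closest to Cfp, the properdin gene (0.13), and Cd300lf to Rasgrp4 (0.13) and then to the adaptor gene Tyrobp (0.15). Ceacam1 was closest to Chil4 (0.12), Siglece to Ccdc125 (0.17) and then to the complement gene C3 (0.18). Lair1 was closest to Rab3d (0.08), Sirpa to Snrk (0.10) and Cd300a to Zfand3 (0.05). Second in likeness were Sqor for Vsir (0.10), Naaa for Pirb (0.15), Wfdc21 for Ceacam1 (0.14), Sytl1 for Lair1 (0.10), Acox3 for Cd33 (0.11), Irak2 for Sirpa (0.10) and Pitpnm1 for Cd300a (0.07). Among the 9 themselves, Cd33 and Lair1 were the most alike (0.18) and Cd300a and Cd300lf the least alike (0.95).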

How the data were processed

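Estimated counts, deposited by the authors without normalisation, cover the 7 libraries in 1 table with a row for each symbol. The submitters' processing notes name kallisto, the build GRCm38 and DESeq2. Their versions, the transcript index and the strand setting are not given in the sources here. Per the labels' protocols, poly(A) RNA was read from both ends at 150 bases. Columns were matched to samples by the number in each sample's description. Of the values, 32.5% were not whole (tolerance 1e-06), and counts were rounded. In 26 rows the symbol had become a date; these held 0.172% of counts and stayed in the tests.

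Filtering by filterByExpr over MN1pQdel and MN1 kept 14808 genes, all 9 receptors among them. Libraries were scaled by TMM and tested with edgeR 4.0.16 (R 4.3.3) by the quasi-likelihood test, MN1pQdel over MN1, with no other term and Benjamini-Hochberg adjustment. SE is the absolute log2 fold change over the root of F. The alternatives were DESeq2 1.42.0, library totals in place of TMM, no filter, a replicate block, leaving out each transduced library and leaving out both libraries numbered 2. The pipeline was tested on simulated counts. The members and lists were chosen with earlier results of these data known. Of 247 list entries, 6 matched no symbol and were not analysed here. All 9 members are named, with the 2 genes of most similar profile for each, and from other lists up to 4 called genes with the largest change where they bear on a member. A few genes that this rule names are not reported here. Cd300lb, Cd300ld, Sirpb1b, Ptpn6, Ptpn11, Inpp5d, Cd47, B2m, Cd72, Pilra, Fcgr2b and Siglec5 fall outside this rule and were chosen after their values were seen. Coordinates and exon lengths come from GENCODE M21 on GRCm38, and upstream sequences from RefSeq on GRCm38.p6.

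Replicates were distinct, with a chi-square per gene of 40.3 to 323 between libraries of a group. Deviations from group means correlated at 0.367, 0.258 and 0.320 between libraries of the same number and at most at -0.0599 between others. Such deviations cancel out within a group, so positive values for same-numbered libraries force the others negative on average. The negative values are therefore no separate evidence of pairing. Same-numbered libraries were treated as pairs in the block. That pairing is not stated in the labels, and only these correlations bear on it.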

Additional observations from a re-analysis of the deposited data

How the results depend on the processing

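All 9 receptors stayed higher in MN1pQdel under DESeq2, library totals, no filter, the replicate block and without the replicate 2 pair. With 1 library left out, 7 to 9 of them were called. The losses were Cd300a and Cd300lf, and no direction turned. The replicate block changed no call among the 9. Of the lists, it moved the count higher by less than 1.5 times for activating counterparts (12), phosphatases and effectors (14), monocyte and macrophage markers (9) and eosinophil markers (10), and the count lower for progenitor markers (8). Neutrophil, lymphoid and adaptor counts did not move, and the other lists' blocked counts stand beside their results. Scaling by totals alone shifted the all-gene median by -0.20 (log2), and 38.2% of calls were then higher in MN1pQdel (1140 higher, 1847 lower) against 64.6% with TMM (1643 higher, 901 lower). The block gave 2523 higher and 2022 lower genes, and the fits with 1 library left out called from 506 (without MN1pQdel replicate 1) to 6394 genes (without MN1pQdel replicate 2), against 2544 from all 6 libraries. DESeq2 called 4351 genes, and the fit without the replicate 2 pair 5247.

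Of 91 tested genes of the 6 related lists, 37 were higher and 3 lower. With 1 library left out 13 to 51 were higher and 0 to 8 lower, and 6 were lower with library totals, 6 with DESeq2, 7 with the replicate block and 10 without the replicate 2 pair. Against noTD, no receptor was past 2-fold lower in MN1pQdel, 2 were past 1.5-fold lower, and 0 to 1 were past 2-fold lower with 1 library left out. In MN1, 8 of 9 were past 2-fold lower with library totals. Depth did not limit the receptors, whose lowest count in any library was 331 for Siglece. A single untransduced library limits every comparison with it.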
